A study of Mus musculus with 4 samples.

Results

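Solute carriers are membrane proteins that move amino acids, sugars, metals, nucleosides and other small molecules across the plasma membrane, lysosomes and mitochondria. Their genes are named Slc with a family number and a member letter and number, and members of a family can differ in substrate. In macrophages they supply arginine and glutamine, take up or release iron, zinc and copper, and in the phagosome withhold metals from microbes. On these arrays 151 of 8251 genes with a single symbol were solute carriers by their symbol, measured by 185 probe sets, which are groups of short DNA probes against a transcript. Members were chosen by symbol alone and sorted into 10 classes by substrate. The symbol also took in 3 adapter proteins that bind carriers and transport nothing themselves (Slc4a1ap, Slc9a3r1 and Slc9a3r2).

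The cells were thioglycolate-elicited peritoneal exudate cells of female BALB/c mice aged 6 to 8 weeks, harvested 4 days after 2 ml of 3% thioglycolate, and given porcine TGFb2 (5 ng, with no volume stated) or PBS overnight. The groups held 2 arrays each, called PBS replicates 1 and 2 and TGFb2 replicates 1 and 2 below. The medium of both groups was serum-free RPMI with 2 mM glutamine, HEPES, penicillin, streptomycin, linoleic acid and selenium, and with 1 mg/ml iron-free transferrin and 0.2 mg/ml ferric nitrate, so carriers of glutamine and iron were read under that supply. Adherent cells, over 95% F4/80 positive per the labels, were used for RNA. Whether replicates were separate cultures or animals is not stated, so the p-values describe array-to-array spread only, and part or all of it may be technical.

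Macrophage markers chosen for the check were all 10 above the level filter, with summed signals of 15945.6 and 16795 with PBS and 17850.8 and 18286 with TGFb2. Among markers of other cells, the summed signal of the neutrophil list was 308.2 and 351 with PBS and 748.4 and 836.3 with TGFb2. Of 8 neutrophil genes on the array, 5 lay below the filter, among them Ly6g, Mpo and S100a9. S100a8, which macrophages can also express, was at 128.7 and 210.9 with PBS and 550.6 and 679.2 with TGFb2 and passed the test (limma adjusted p = 0.024). The fibroblast and mesothelial list summed to 2341.7 and 1687.7 with PBS and 1778.6 and 1565.3 with TGFb2, with 5 of its 13 genes below the filter (Krt18, Krt19, Msln, Pdgfrb and Thy1). In it Dcn fell from 1130.5 and 746.8 to 318.7 and 256.5 (limma adjusted p = 0.026) and Col1a1 rose from 144.1 and 142.2 to 374.1 and 369.6 (limma adjusted p = 0.022). The sums were 254 to 418.3 over 5 B cell genes, 38.5 to 76.2 over 6 T and NK cell genes, of which 5 lay below the filter, and 392 to 546.4 over 7 mast cell and eosinophil genes, of which 4 did. The part of these cells in the carrier values was not tested.

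No solute carrier passed the test. Signals were compared as log2(signal + 15), which understates the differences of dim genes, and probe sets whose mean on that scale over the 4 arrays corresponded to a signal of about 24.0 or more were tested. That left 107 of the 185 carrier probe sets, for 96 genes. Of these 107, 2 had a PBS mean and 6 a TGFb2 mean below that level, so they were tested only through the other group, and 5 of the 6 (Slc39a3, Slc25a3, Slc4a3, Slc22a2 and the dimmer probe set of Slc35e1) are counted below among the groups without overlap. Of these, 0 were higher and 0 lower with TGFb2 at an adjusted p of 0.05 (limma with Benjamini-Hochberg adjustment over all tested probe sets). The background over all 7453 tested probe sets was 1.18% called, with 0.818% higher and 0.362% lower. At an unadjusted p under 0.05 there were 11 carrier probe sets, 7 higher and 4 lower, or 10.3% of those tested, against 11.6% of all tested probe sets. The lowest adjusted p of any carrier probe set was 0.12, for one of Slc39a1.

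Both TGFb2 arrays lay above both PBS arrays for 19 carrier probe sets (17.8%, where the background was 21.1%) and below them for 27 (25.2%, where it was 21.7%). Together 43.0% had groups without overlap, against 42.8% of all tested probe sets. Without overlap, 2 carrier probe sets (1.87%, background 2.29%) differed by at least 1 on the log2 scale of the test. They were those of Slc7a8 and Slc39a1, both higher with TGFb2. That scale understates the differences of dim genes. In plain signal the dim Slc25a3 was also past 2-fold without overlap, its TGFb2 mean being 0.48 of its PBS mean. Slc25a3 was tested only through its PBS arrays, where it is higher. No share over all tested probe sets is given for plain signal. The median difference of the carriers was -0.077 on the log2 scale and that of all tested probe sets -0.00082, and 64 of 107 carrier probe sets (59.8%) differed downwards against 50.2% of all. In bulk RNA, a difference in the number of cells of a type and one in RNA per cell cannot be told apart.

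How far the data bound the differences is shown by their 95% intervals from the same fit. For 80 of the 107 carrier probe sets (74.8%, against 82.8% of all tested) the interval lay within 1 in either direction on the log2 scale of the test. For the rest the interval reached past that bound in at least 1 direction. That scale understates the differences of dim genes. For a dim probe set, an interval within the bound can therefore still reach past 2-fold in plain signal. An adjusted p above the threshold is therefore no sign that a carrier was equal in both groups.

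**Figure D1:**
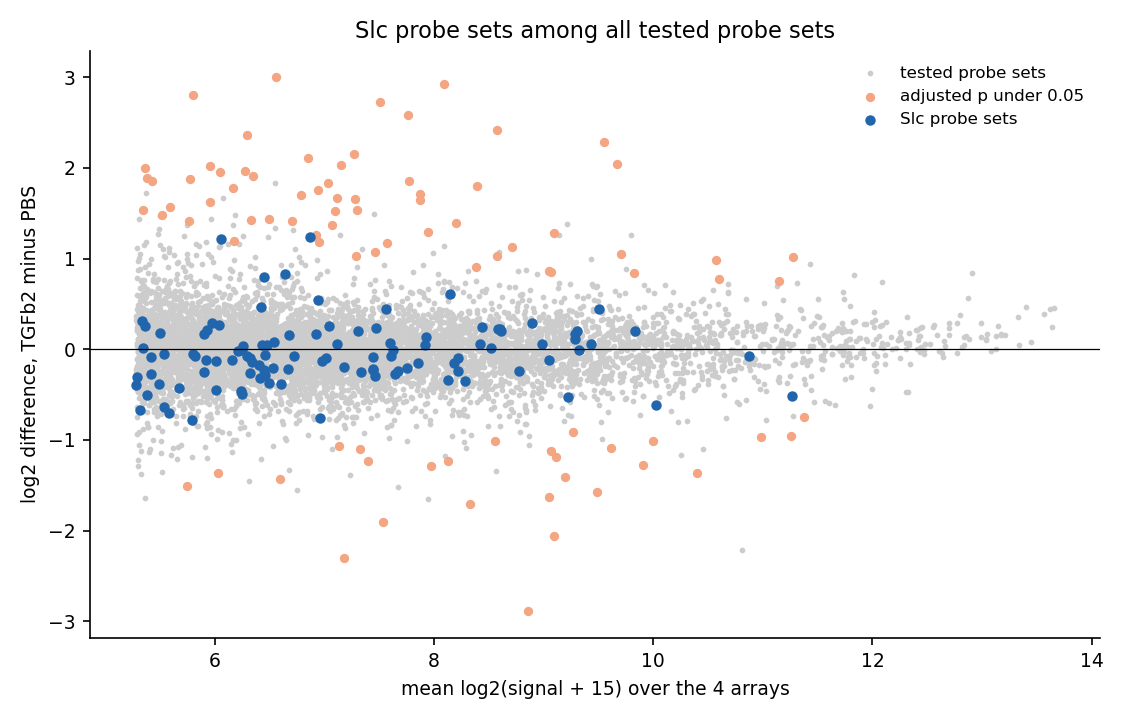
Log2 difference (TGFb2 minus PBS) against the mean log2(signal + 15) over the 4 arrays, for all 7453 tested probe sets (grey), the 88 past the threshold (orange) and the 107 Slc probe sets (blue). The blue points lie between -0.78 and 1.24 and none of them is past the threshold.

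**Figure D2:**
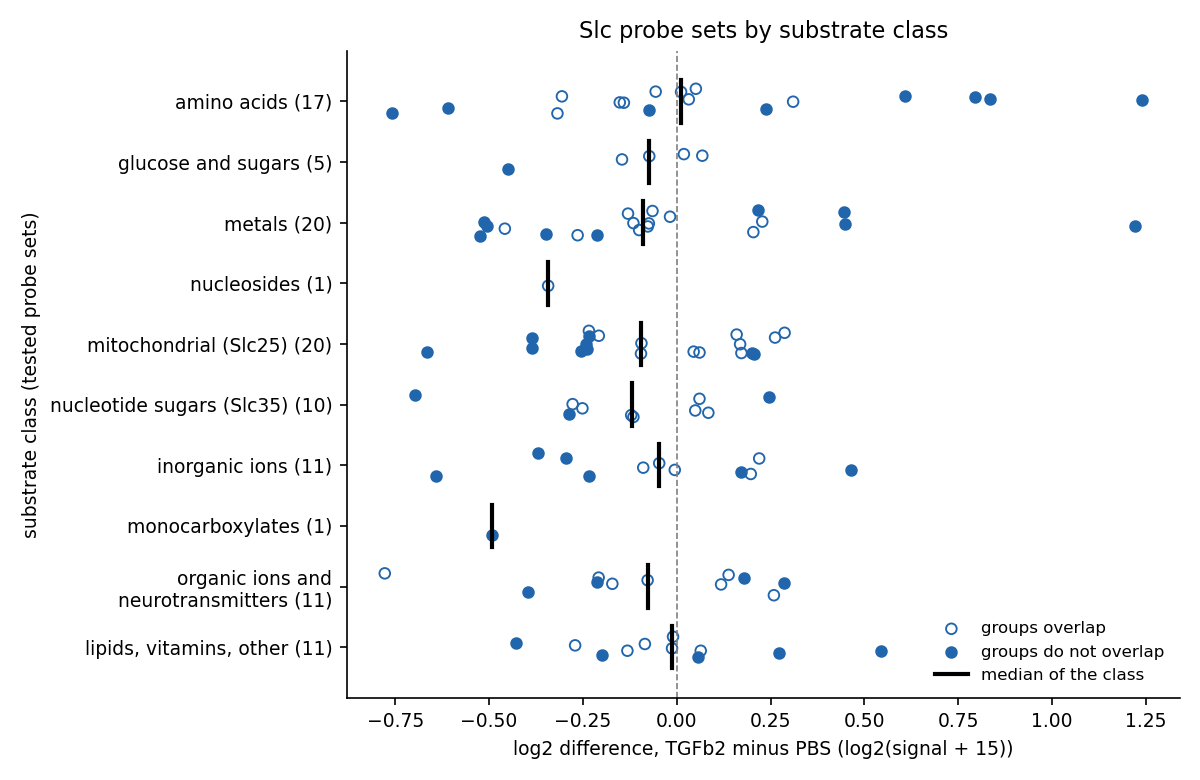
Log2 difference (TGFb2 minus PBS) of each tested Slc probe set by substrate class, with the number of probe sets in brackets, filled where the groups do not overlap and open where they do, and a bar at the class median. The amino acid and metal classes reach farthest to the right, at 1.24 and 1.22, and the medians of the classes with over 1 probe set lie between -0.12 and 0.012.

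Promoters of 4 carriers, none past the threshold, are shown so that the letters before each start can be read beside the values. Slc39a1, with the lowest adjusted p of the carriers (limma adjusted p = 0.12), and Slc7a2 are not among them. The windows run 5′ to 3′ on the gene's strand from 250 bases before to 50 after the most upstream start in RefSeq's table, build GRCm38.p6. Slc7a7 has 5 starts there. Capitals mark the core of the amino acid response element, TGATGNAA, which ATF4 dimers bind when amino acids are short, and the Smad box CAGAC, both searched on both strands, where CAGAC reads GTCTG on the other strand. The windows are chr14:54417895-54418194 (minus strand) for Slc7a7, chr14:54781837-54782136 (minus) for Slc7a8, chr15:96699679-96699978 (minus) for Slc38a2 and chr1:74374953-74375252 (plus) for Slc11a1.
Slc7a7: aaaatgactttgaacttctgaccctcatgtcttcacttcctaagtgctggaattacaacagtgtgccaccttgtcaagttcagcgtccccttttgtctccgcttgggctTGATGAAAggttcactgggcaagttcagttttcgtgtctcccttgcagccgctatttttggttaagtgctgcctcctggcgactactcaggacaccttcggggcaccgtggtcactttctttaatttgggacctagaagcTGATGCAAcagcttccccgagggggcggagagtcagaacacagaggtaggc
Slc7a8: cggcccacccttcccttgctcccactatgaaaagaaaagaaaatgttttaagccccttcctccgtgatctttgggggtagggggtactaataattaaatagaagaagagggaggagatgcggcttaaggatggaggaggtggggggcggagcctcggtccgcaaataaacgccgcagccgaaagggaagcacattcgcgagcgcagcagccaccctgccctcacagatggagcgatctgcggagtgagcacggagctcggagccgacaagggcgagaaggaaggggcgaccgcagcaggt
Slc38a2: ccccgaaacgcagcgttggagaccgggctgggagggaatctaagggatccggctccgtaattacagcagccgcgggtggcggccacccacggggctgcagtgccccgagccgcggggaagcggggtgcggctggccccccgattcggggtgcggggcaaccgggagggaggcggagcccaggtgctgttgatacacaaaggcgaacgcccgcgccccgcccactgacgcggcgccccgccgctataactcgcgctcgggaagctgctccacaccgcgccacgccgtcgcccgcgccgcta
Slc11a1: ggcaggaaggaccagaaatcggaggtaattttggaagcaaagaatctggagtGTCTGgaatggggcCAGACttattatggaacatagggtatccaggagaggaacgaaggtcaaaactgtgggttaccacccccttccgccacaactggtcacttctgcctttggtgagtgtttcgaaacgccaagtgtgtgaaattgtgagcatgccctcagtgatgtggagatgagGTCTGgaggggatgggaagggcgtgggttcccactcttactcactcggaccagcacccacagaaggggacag
The Slc7a7 window held 2 matches to TGATGNAA, the Slc11a1 window 3 to CAGAC, and the other windows none to either. Of 32851 promoters of this length, 3.97% held TGATGNAA and 49.6% CAGAC, and of the 117 promoters of 78 tested carrier genes matched by symbol, 4.27% and 53.0%. A match to such short letters is a description and no binding site, and the other windows only lack these letters. Gene sequence beyond the promoters was not searched, so an empty window does not show that a gene lacks the element.

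Differences of the amino acid carriers ran from -0.76 for Slc38a2 to 1.24 for Slc7a8 on the log2 scale. Of 26 genes on the array 16 were tested, by 17 probe sets, and 0 passed. Groups did not overlap for 8 of the 17 (47.1% against 42.8% of all tested). Of these, 5 were higher and 3 lower with TGFb2, where 21.1% of all tested were higher and 21.7% lower. The class median was 0.012. With 1 array left out that median ran from -0.037 to 0.10, and with 1 probe set per gene it was -0.022. The 4 Slc7 genes without overlap and Slc6a18 had higher values with TGFb2, and Slc38a2, Slc6a6 and, by a small margin, Slc3a2 had lower ones.

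Slc7a8 encodes LAT2, an exchanger of neutral amino acids that works as a dimer with the heavy chain of Slc3a2. The PBS arrays gave Slc7a8 signals of 42.8 and 84.7, and the TGFb2 arrays 121 and 221.3. Replicate 2 was the higher array in each group, and the gap between the groups was smaller than the gaps within them. The log2 difference was 1.24 with a standard error of 0.34 and a 95% interval of 0.45 to 2.03 (limma adjusted p = 0.18).

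Slc7a2, which encodes the cationic carrier CAT2 that brings in arginine for arginase and nitric oxide synthase, had signals of 53.9 and 49.3 with PBS and 84.7 and 118.9 with TGFb2. Its TGFb2 arrays were apart from each other by more than the PBS arrays were, and both lay above them. The difference was 0.80 ± 0.22 (SE) on the log2 scale, with an interval of 0.28 to 1.31 (limma adjusted p = 0.19). Slc7a7 encodes y+LAT1, which with the same heavy chain exports cationic amino acids for neutral ones. It had signals of 222.8 and 206.3 with PBS and 359.2 and 311.5 with TGFb2, close pairs that did not overlap. Its difference was 0.61 ± 0.17 (limma adjusted p = 0.19).

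Slc7a5, the leucine exchanger LAT1, had signals of 151.9 and 145.4 with PBS and 200.5 and 157.6 with TGFb2, a log2 difference of 0.24 (interval -0.20 to 0.67). The shared heavy chain gene Slc3a2 was at 1954.5 and 1874.9 with PBS and 1780.8 and 1858.4 with TGFb2, without overlap but close together, and its interval of -0.36 to 0.21 excludes a change of 2-fold. The log2 difference of Slc3a2 was -0.073 while those of its tested light chain partners Slc7a5, Slc7a7 and Slc7a8 were 0.24 to 1.24. The difference between these values was not tested.

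Slc38a2 encodes SNAT2, a sodium-coupled carrier of glutamine and alanine whose transcript is known to follow amino acid supply. Its signals were 159.2 and 136.3 with PBS and 77.3 and 84.8 with TGFb2, so that both TGFb2 arrays were at about the same low level. The log2 difference was -0.76 ± 0.19 (SE), with an interval of -1.19 to -0.33 (limma adjusted p = 0.14). Its neighbour on chromosome 15 in the GRCm38.p6 table, Slc38a4, was at 39.7 and 19.5 with PBS and 11.5 and 31.6 with TGFb2, with overlap. Among the 96 tested carrier genes, no other pair followed each other by start position among the protein-coding genes of that table.

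The taurine carrier Slc6a6 had signals of 1135 and 1418.4 with PBS and 629.6 and 1083.7 with TGFb2 in its brighter probe set, a difference of -0.61 ± 0.25. Both TGFb2 arrays were below both PBS arrays, the higher one only slightly. The dimmer probe set of Slc6a6 had 112.4 and 45 with PBS and 65.2 and 87.3 with TGFb2, where the groups overlapped (0.051 ± 0.35). The neutral amino acid carrier Slc6a18 had 89.8 and 38.5 with PBS and 95.2 and 146.6 with TGFb2 (0.83 ± 0.34, limma adjusted p = 0.40). Its upper PBS array nearly reached the lower TGFb2 array.

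The glutamine carrier Slc1a5 (ASCT2) had 92.5 and 69.5 with PBS and 70.1 and 53.7 with TGFb2, with overlap. Another 6 members, Slc1a4, Slc38a5, Slc38a10, Slc6a9, Slc6a20b and Slc7a9, also overlapped, with differences from -0.15 to 0.31. Both the cystine carrier gene Slc7a11, which feeds glutathione synthesis, and the arginine carrier gene Slc7a1 lay below the filter. Slc7a11 had signals of 4.1 and 7.6 with PBS and 17.9 and 12.2 with TGFb2, and Slc7a1 of 4.1 and 2.7 against 3.9 and 2. No probe set has a detection call, so these values do not tell a low transcript from a probe set that hybridises poorly.

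**Figure D3:**
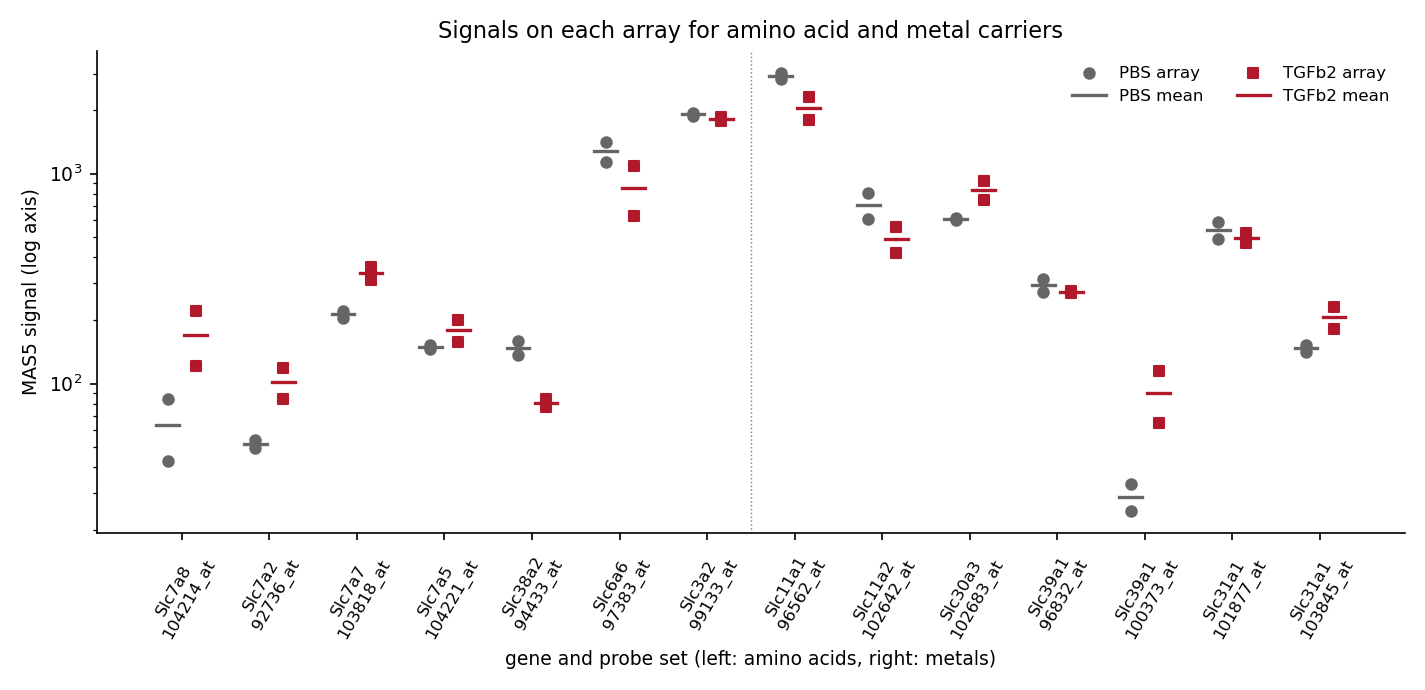
MAS5 signal on a log axis of 14 probe sets of amino acid carriers (left) and metal carriers (right), with PBS arrays as grey circles, TGFb2 arrays as red squares and a line at each group's mean. Slc7a8, Slc7a2 and Slc7a7 lie higher and Slc38a2, Slc6a6, Slc11a1 and Slc11a2 lower on both TGFb2 arrays, while the paired probe sets of Slc39a1 and of Slc31a1 differ from each other in how the groups lie.

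No metal carrier passed. Of 20 tested probe sets 14 differed downwards, where 50.2% of all tested probe sets did, and the class median was -0.089. Of the 18 genes on the array, the iron carrier gene Slc40a1 not among them, 15 were tested. Groups did not overlap for 9 probe sets (45% against 42.8% of all tested), 4 higher and 5 lower. Among these, the 3 probe sets of the iron carriers Slc11a1 and Slc11a2 lay lower, while those of zinc and copper carriers lay on both sides.

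Slc11a1 encodes NRAMP1, which pumps iron and manganese out of the phagosome of macrophages. BALB/c mice are known to carry the allele of it that leaves them susceptible to intracellular microbes. The signals were 2826.3 and 3027.9 with PBS and 1795.9 and 2330.7 with TGFb2, so both TGFb2 arrays were lower, replicate 1 by the most. The log2 difference was -0.51 ± 0.15 (SE), with an interval of -0.86 to -0.16 (limma adjusted p = 0.22). Slc11a2 encodes DMT1, which moves iron from endosomes into the cytosol after transferrin uptake. It had 610.8 and 807 with PBS and 418.8 and 557.7 with TGFb2 (-0.53 ± 0.20, limma adjusted p = 0.38). The second, dimmer probe set of Slc11a2 had 177.6 and 167.6 against 166.9 and 128.8 and differed by -0.21 ± 0.19. Both probe sets had groups without overlap in the same direction, though in the dimmer the nearest arrays almost touched.

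Slc48a1, a lysosomal exporter of haem, was at 312.2 and 389.5 with PBS and 369.9 and 441.4 with TGFb2. The proton-coupled folate and haem carrier Slc46a1 was at 33.3 and 54.9 against 18.9 and 74.5. Both overlapped. Of 10 tested iron handling genes outside the carriers, 0 passed and the median difference was 0.13. At an unadjusted p under 0.05 there were 2, both higher, where 11.6% of all tested probe sets had such a p. Haptoglobin (Hp), which binds free haemoglobin, had signals of 219.6 and 562.4 with PBS and 629.5 and 1418.7 with TGFb2 (1.39 ± 0.47, limma adjusted p = 0.29). Hfe, a regulator of iron sensing, had 49.5 and 76.6 against 115.5 and 111.5 (0.74 ± 0.23, limma adjusted p = 0.23).

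For the zinc carriers Slc39a1 and Slc39a4 the reading depended on the probe set, while both tested probe sets of Slc30a5 overlapped (-0.018 and -0.13). Slc39a1 encodes ZIP1, which brings zinc into the cell. The dimmer of its 2 tested probe sets had 33.2 and 24.6 with PBS and 64.9 and 114.7 with TGFb2, a log2 difference of 1.22 ± 0.29 (SE) with an interval of 0.56 to 1.89 (limma adjusted p = 0.12). The brighter one had 274.1 and 313.2 against 275.7 and 269.1, with overlap, and a difference of -0.10 ± 0.17. The interval of the brighter, -0.49 to 0.29, does not meet that of the dimmer. The difference between the probe sets was not tested.

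Slc30a3 encodes ZNT3, a vesicular zinc carrier best known from neurons. Its signals were 615.4 and 600 with PBS and 925.4 and 753.2 with TGFb2, 0.45 ± 0.16 on the log2 scale (limma adjusted p = 0.33). The zinc exporter gene Slc30a1, a known target of the zinc sensor Mtf1, had 93.9 and 57.3 with PBS and 61.7 and 39.4 with TGFb2, with overlap. Slc39a3 had 37.7 and 32.1 against 11.9 and 30.8, a difference of -0.51 ± 0.33. Here the lower value rests mostly on TGFb2 replicate 1.

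Copper enters through CTR1, encoded by Slc31a1. The brighter probe set of Slc31a1 had 488 and 590 with PBS and 521 and 468.8 with TGFb2, and the dimmer 141.7 and 152.5 against 231.7 and 182.1. The first overlapped (-0.12 ± 0.17) and the second did not (0.44 ± 0.19, limma adjusted p = 0.42). For the intestinal-type zinc importer Slc39a4 the brighter probe set was lower without overlap (-0.35 ± 0.16) and the dimmer higher without overlap (0.22 ± 0.23). Of 8 tested genes of zinc and copper stress, 0 passed (0 at an unadjusted p under 0.05), with the metallothionein Mt2 at 481.9 and 364 against 357.3 and 226.9 and the zinc sensor Mtf1 at 44.6 and 35.1 against 11.1 and 43.7.

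**Figure D4:**
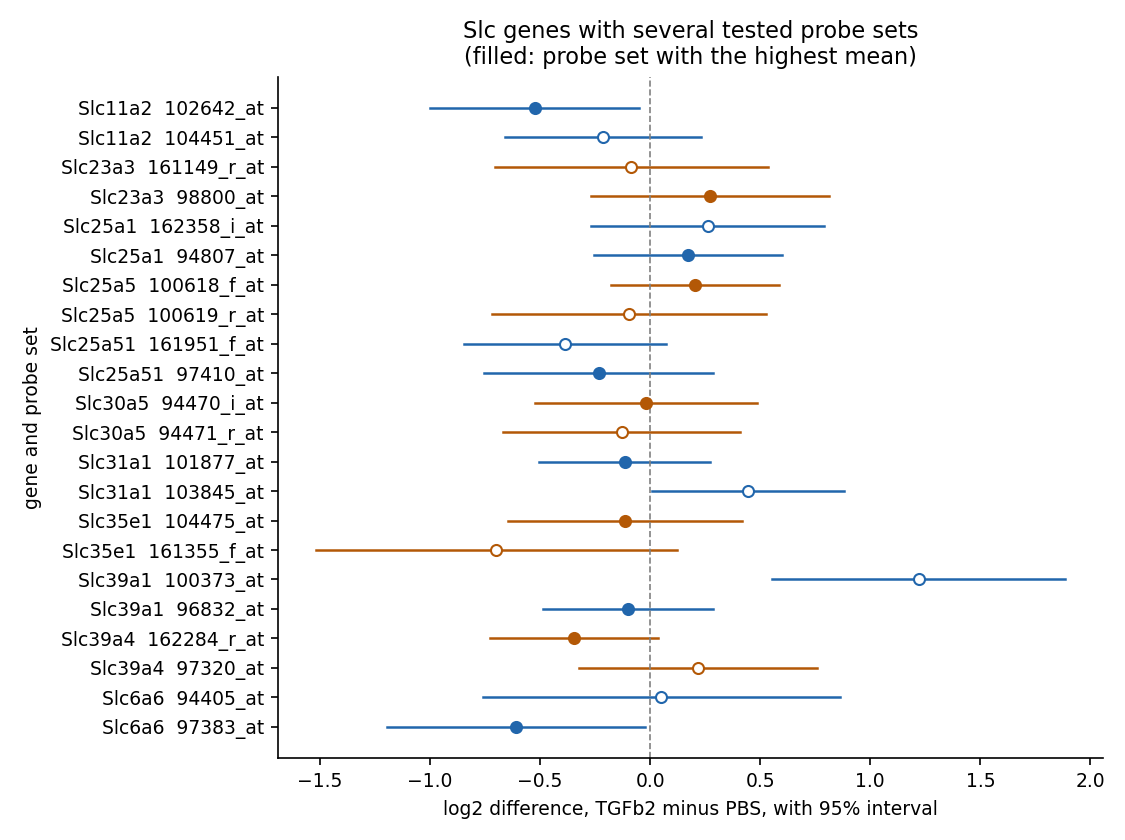
Log2 difference (TGFb2 minus PBS) with its 95% interval for the 22 tested probe sets of the 11 Slc genes with 2 tested probe sets each, filled for the probe set with the highest mean and coloured alternately by gene. For 6 genes the 2 values lie on opposite sides of 0, and the 2 intervals of Slc39a1 do not meet.

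Over all classes, 11 genes had 2 tested probe sets each, and these had the same sign for 5 genes and opposite signs for 6. Slc11a2, Slc25a1, Slc25a51, Slc30a5 and Slc35e1 were those with the same sign. The span between the probe sets of a gene ran from 0.09 for Slc25a1 to 1.32 for Slc39a1. Of the tested carrier probe sets, 11 had a suffixed identifier (such as _f_at or _r_at), a mark of probe sets that may cross-hybridise within a gene family or that follow relaxed probe selection.

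Carriers of glucose and other sugars had 5 tested probe sets, of which 1 had groups without overlap (20% against 42.8% of all tested). Of 9 genes of sugar transport 5 were tested, 0 passed, and the median difference was -0.073. Slc2a1 encodes GLUT1, the main glucose entry route of activated macrophages. It had signals of 319.7 and 264.2 with PBS and 271.6 and 251.4 with TGFb2, an interval of -0.55 to 0.26 on the log2 scale. Slc2a3 (GLUT3) had 26.4 and 24.6 against 28.5 and 23.7, close to the filter level. Slc2a8 and Slc50a1 overlapped as well. The glucose-6-phosphate carrier Slc37a4 of the endoplasmic reticulum was the sole one without overlap, at 72.8 and 49.8 against 34.2 and 47 (-0.45 ± 0.26, limma adjusted p = 0.57).

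Of 13 tested genes of glucose use and lactate output, 0 passed (6 at an unadjusted p under 0.05, 4 higher and 2 lower), with a median of 0.21 and 11 without overlap, 8 higher and 3 lower. Over all genes read the same way 43.8% had no overlap and the median was 0.0027, and 11.6% of all probe sets had an unadjusted p under 0.05. Hexokinase 1 (Hk1), which traps glucose inside the cell, had 2156.1 on both PBS arrays and 1554.9 and 1276.5 with TGFb2 (-0.61 ± 0.14, limma adjusted p = 0.12). The phosphofructokinase gene Pfkl had 502.9 and 576.3 against 753.5 and 879.4 (0.58 ± 0.16, limma adjusted p = 0.19). Lactate leaves the cell through monocarboxylate carriers. The array had 3 such genes by symbol, Slc16a3 not among them. Only Slc16a7 (MCT2) was tested, at 73 and 77.9 with PBS and 42.1 and 57.4 with TGFb2 (-0.49 ± 0.22, limma adjusted p = 0.45). Slc16a1 (MCT1) lay below the filter, at 2.4 and 13.8 against 11.3 and 9.5.

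Nucleoside carriers were represented by 2 genes. Slc29a1 encodes ENT1, which lets adenosine and other nucleosides pass in either direction. Its tested probe set had 262.9 and 344.3 with PBS and 206.7 and 265.1 with TGFb2, with overlap (-0.34 ± 0.21). A probe set of Slc29a1 below the filter had 16.7 and 7.9 against 29.5 and 23.6, and Slc29a2 lay between 3.8 and 8.8 on all arrays. Of 10 tested genes of nucleotide and nucleoside use, 0 passed. At an unadjusted p under 0.05 there were 2, both lower, where 11.6% of all tested probe sets had such a p. Adenosine kinase (Adk) had 743.8 and 779.5 against 208.8 and 563.9 (-1.11 ± 0.38, limma adjusted p = 0.30), and the ectonucleotidase Entpd1 (CD39) 69.6 and 48.8 against 21.9 and 37.7 (-0.74 ± 0.28).

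Mitochondrial carriers of the Slc25 family sit in the inner membrane. Of 20 genes 17 were tested, by 20 probe sets, and 0 passed. Groups did not overlap for 9 probe sets (45% against 42.8% of all tested), 2 higher and 7 lower, where 21.1% of all tested were higher and 21.7% lower. The class median was -0.095, with differences from -0.66 to 0.29. The ADP/ATP exchangers Slc25a4 and Slc25a5 were the 2 that lay higher without overlap. Slc25a4 had 857.7 and 815 with PBS and 978.7 and 946.1 with TGFb2 (0.20 ± 0.14), tight pairs on both sides. Slc25a5 had 602.1 and 549.5 against 734.4 and 602.8 in its brighter probe set, where the nearest arrays were almost equal, and overlapped in its dimmer one.

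Lower without overlap were Slc25a3, Slc25a11, Slc25a14, Slc25a20, Slc25a28 and Slc25a53, and the dimmer probe set of Slc25a51. The phosphate carrier Slc25a3 had 26.9 and 45.6 with PBS and 22.7 and 11.8 with TGFb2, the largest difference of the class (-0.66 ± 0.33) at signals near the filter. Slc25a20, which brings acylcarnitines in for fatty acid oxidation, had 210.5 and 203.4 against 147.7 and 202.4, so that TGFb2 replicate 2 nearly equalled the PBS arrays. The oxoglutarate and malate exchanger Slc25a11 had 277 and 343.6 against 248.2 and 269.9 (-0.24 ± 0.18), and the iron importer mitoferrin 2, encoded by Slc25a28, 172.4 and 176.6 against 137.5 and 155.4 (-0.23 ± 0.17). The citrate carrier Slc25a1 overlapped in both of its probe sets, at 514.1 and 638.9 against 579.9 and 723.6 in the brighter.

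Nucleotide sugar carriers of the Slc35 family feed the Golgi and endoplasmic reticulum for glycosylation. Of 10 genes 9 were tested, by 10 probe sets, and 0 passed, with a median of -0.12. Slc35b2, which brings in the sulfate donor PAPS, had 314.2 and 294 with PBS and 356.2 and 369.7 with TGFb2 (0.24 ± 0.16). The galactose donor carrier Slc35a2 had 81.9 and 82.5 against 75.3 and 55.3 (-0.29 ± 0.21). The orphan member Slc35e1 had 44.1 and 48.2 against 37.9 and 11.8 in its dimmer probe set (-0.70 ± 0.35), where TGFb2 replicate 2 stood apart, and overlapped in its brighter one. The CMP-sialic acid carrier Slc35a1 overlapped, at 66.8 and 72.9 against 65.8 and 80.3.

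Carriers of inorganic ions set cell pH, volume and calcium. Of 24 genes 11 were tested, the 3 adapters among them, and 0 passed, with a median of -0.047. Groups did not overlap for 6 (54.5% against 42.8% of all tested), 2 higher and 4 lower. The higher ones included the adapter Slc9a3r2 and the lower ones the adapter Slc4a1ap. Slc8a1, the sodium/calcium exchanger NCX1, had 67.1 and 49.8 with PBS and 73.9 and 99 with TGFb2 (0.46 ± 0.23, limma adjusted p = 0.50). The chloride/bicarbonate exchanger Slc4a3 had 48.3 and 38 against 29.2 and 16.2 (-0.64 ± 0.29, limma adjusted p = 0.45). The potassium/chloride cotransporter Slc12a7 had 90.2 and 84.7 against 71.7 and 57.4 (-0.37 ± 0.20), and the Golgi sodium/proton exchanger Slc9a8 212 and 154.3 against 136.9 and 153. The phosphate importer Slc20a1 was level, with an interval of -0.46 to 0.45 that excludes a change of 2-fold. Of 7 tested ion pumps, read by the probe set with the highest mean, 0 passed (0 at an unadjusted p under 0.05), with the calcium pump Atp2a2 at 104.2 and 73.9 against 125.8 and 95.6 and the sodium pump subunit Atp1b1 at 35.8 and 36.2 against 32.5 and 26. A dimmer probe set of the proton pump subunit Atp6v1b2 did pass, at 271.7 and 217.6 against 91.2 and 98.7 (-1.23 ± 0.19, limma adjusted p = 0.035). That call was lost with any 1 array left out (limma adjusted p from 0.075 to 0.17), without the level filter (0.12) and without the intensity trend (0.080). The brighter probe set of Atp6v1b2 overlapped, at 5805 and 5146.9 against 5174.4 and 4604.9 (-0.16 ± 0.12).

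Of 21 genes for organic ions, neurotransmitters and bile acids, 11 were tested and 0 passed (median -0.078). The lowest difference of all tested carriers was that of the noradrenaline carrier Slc6a2, at 77.2 and 42.3 against 47.6 and 13.7 (-0.78 ± 0.41), and its groups overlapped. Without overlap were Slc22a2 and Slc22a18, lower, and Slc22a5 and Slc22a17, higher, with differences between -0.40 and 0.29. The carnitine importer Slc22a5 had 30 and 25.1 against 30.5 and 35.9, with the nearest arrays almost equal. The creatine carrier Slc6a8 was at 507.6 and 672.4 against 677 and 596.6, with overlap.

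Among carriers of lipids, vitamins and other substrates, 10 of 18 genes were tested, by 11 probe sets, and 0 passed (median -0.012). The fatty acid transport protein Slc27a1 had 89.7 and 83.9 with PBS and 102.4 and 172.9 with TGFb2 (0.55 ± 0.25, limma adjusted p = 0.46), where TGFb2 replicate 2 stood well above the other arrays. Slc5a6, which imports biotin and pantothenate, had 40.7 and 48.3 against 21.5 and 38.3 (-0.43 ± 0.28). Slc44a4 had 141.1 and 140.3 against 124.5 and 117 (-0.20 ± 0.17), and the ascorbate carrier family member Slc23a3 had 50.9 and 39.3 against 63.8 and 51.2 in its brighter probe set. The choline carrier Slc44a1 was slightly higher without overlap (0.057). The folate carrier Slc19a1 and the ascorbate carrier Slc23a2 overlapped.

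Below the level filter lay 78 probe sets, which were left out of the test, and 55 genes had no tested probe set. The highest signal of the 78 on any array was 50.5, and the median of their mean signals was 8.49. Among the 55 genes were the glucose carriers Slc2a2 and Slc5a1, the fructose carrier Slc2a5, the bile acid importers Slc10a1 and Slc10a2, and the kidney salt and phosphate carriers Slc12a1, Slc12a3, Slc34a1 and Slc34a2. The insulin-regulated glucose carrier Slc2a4 and the zinc and manganese importer Slc39a8 were also among them.

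The list of arginine, cystine and glutamine use covers enzymes that work on substrates of carriers such as Slc7a2, Slc7a11 and Slc38a2. Of 14 tested, each read by the probe set with the highest mean, 1 passed as higher (Cdo1) and 0 as lower, with a median of 0.24. Of all tested probe sets, 1.18% were called, 0.818% higher and 0.362% lower. At an unadjusted p under 0.05 there were 5, of which 4 were higher (Cdo1 among them) and 1 lower (Gsr). Over all tested probe sets 11.6% had such a p. Where 50.3% of all genes read the same way lay above 0, differences here were above 0 for 10 genes and below 0 for 4. Those 4 were the glutathione genes Gsr (-0.57), Gclc (-0.45), Gss (-0.41) and Gclm (-0.40, with overlap). The cysteine dioxygenase gene Cdo1 rose from 27.3 and 11.3 with PBS to 317 and 198.9 with TGFb2, a log2 difference of 3.00 ± 0.30 (limma adjusted p = 0.012). Its PBS signals average below the filter level, so it was tested only through the TGFb2 arrays, where it is high. The call was lost without TGFb2 replicate 1 (limma adjusted p = 0.070) and without the level filter (limma adjusted p = 0.092). Next to the arginine carrier, arginase 1 (Arg1) had 287.1 and 427.9 against 1034.3 and 711.5 (1.26 ± 0.25, limma adjusted p = 0.066), and Gatm, which uses arginine for creatine synthesis, 362 and 347.3 against 591.6 and 694.5 (0.83 ± 0.16, limma adjusted p = 0.066). The list of other membrane transporters named ABC and Slco genes, but its 12 tested genes were all of the ABC family. No Slco gene was tested. Of these 12, 0 passed (1 at an unadjusted p under 0.05, higher). The organic anion pump Abcc3 was at 238.4 and 204.2 against 526.6 and 322.4 (0.86 ± 0.24, limma adjusted p = 0.20). The mitochondrial ABC carrier Abcb8 was at 114.2 and 74.2 against 34.6 and 91.2.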

How the data were processed

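Biotin-labelled cRNA of 4 samples, 2 per group, was hybridised to Affymetrix arrays of 12488 probe sets. The values are the deposited MAS5 intensity of each probe set, per the submitters' processing notes, on a linear scale; for its version, detection calls and filters the sources used here say nothing. The authors' values had equal 2% trimmed means on all arrays (150.1), so no further scaling was applied. Array medians ran from 40.1 to 45.6, and the small number of arrays limits the precision. Gene symbols came from the platform annotation, and all 185 carrier probe sets kept their symbol in the GRCm38.p6 table; 1 further probe set with several carrier symbols was left out.

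After 66 control probe sets were removed, log2(signal + 15) was tested with limma 3.58.1 in R 4.3.3 (lmFit and eBayes, prior variance following the mean). The contrast was TGFb2 minus PBS on 4 arrays, two-sided, for the 7453 probe sets at or above the 40th percentile of the mean on that log scale. P-values were adjusted by Benjamini-Hochberg over these. Degrees of freedom were 2 residual plus 5.6 prior, and the procedure was tested on simulated data.

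Each gene of the other lists was represented by whichever tested probe set had the largest mean. Named carriers were 30 known from macrophages or this medium, of which 23 were on the array by symbol and 20 tested. In each class, up to 4 genes with the largest difference among those without overlap were added. Others were named to account for a class after their values were seen. The members and lists were chosen with earlier results of these data known. Same-numbered arrays deviated together with a correlation of 0.15 over tested probe sets, which with 2 numbers cannot show whether they were paired. No array or scan dates were used here. Alternatives covered the pseudocount, normalization, filter, variance model, replicate block, probe sets per gene and each array left out.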

Additional observations from a re-analysis of the deposited data

How the results depend on the processing

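The count of 0 carrier probe sets past the threshold held under each of 13 alternatives to the test and with 1 probe set per gene, except with the replicate number as a block (replicate block), where 5 passed, those of Slc39a1, Slc7a8, Slc38a2, Slc11a1 and Slc6a6. That block gave 320 calls over all probe sets. In the other lists it gave 1 in iron handling, 4 in arginine, cystine and glutamine use and 2 in glucose use. It also gave 1 in nucleoside use and 1 among ABC genes. Same-numbered arrays share only a number, and whether they were paired is not stated, so the block was not taken as a paired design. Of 48 named carrier probe sets, 42 kept their sign under each alternative that gave a value.

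Calls over all probe sets were 57 without a pseudocount, 6 without the filter, 16 without the intensity trend and 11 to 42 with 1 array left out. The carriers' median was -0.0052 without the filter and -0.012 at the 60th percentile, and 73 and 30 carrier probe sets had no overlap there (69 to 83 with 1 array left out, where 1 array stands for a group). Without the filter the class median was 0.044 for sugars, 0.068 for nucleosides and 0.18 for monocarboxylates, and Cdo1's list had 0 calls; at the 60th percentile the class median was 0.053 for Slc25. With 1 array left out class medians ran from -0.037 to 0.10 (amino acids), -0.16 to 0.016 (sugars), -0.15 to -0.043 (metals), -0.15 to 0.024 (Slc25), -0.22 to 0.13 (nucleotide sugars), -0.20 to 0.032 (inorganic ions) and -0.11 to 0.047 (organic ions), so of these 7 medians only that of metals kept its sign. Calls in arginine, cystine and glutamine use then ran from 0 to 2 and in nucleoside use from 0 to 1. There the single array left in a group takes its spread from the other group.

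Signs turned for Slc2a3 (-0.036 by quantile, -0.019 by cyclic loess, -0.065 to 0.10 with 1 array left out) and Slc20a1 (0.0033, 0.023 and -0.20 to 0.19), and with 1 array left out for Slc35a1 (-0.070 to 0.17), the brighter probe set of Slc31a1 (-0.25 to 0.018) and the dimmer ones of Slc25a5 (-0.44 to 0.25) and Slc23a3 (-0.19 to 0.018); the cause was not tested.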
